A study of Homo sapiens with 14 samples.

Results

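The late response to TAp73β was measured in Hep3BTAp73β cells, a human liver cancer line in which doxycycline releases a stably integrated TAp73β construct from repression. The comparison uses the 6 arrays of 48 h out of 14 in the series: 3 cultures treated with doxycycline at 1 µg/ml for 48 h (Dox+) and 3 untreated cultures of the same time (Dox−), with 19775 genes tested, each read from 1 probe set. Every culture of both groups carried the construct, and the line had been grown from picked drug-resistant colonies. Because no culture without the construct was analysed here, effects of TAp73β and of doxycycline itself cannot be told apart. The labels call the cultures biological replicates, so the p-values below measure the spread between 3 and 3 cultures of 1 line. Values are log2 signals after RMA, and a gene is called up-regulated or down-regulated where limma gave a Benjamini-Hochberg adjusted p below 0.05.

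TAp73 is the full-length, transactivating form of the p53 family member p73. It binds p53 response elements and shares with p53 targets that act in cell cycle arrest, death receptor signalling and DNA damage control, while p73 also has functions of its own in ciliated cells, neurons and epithelia. Hep3B cells have lost p53, so an introduced TAp73β acts in them without it. Arrest programmes of the p53 family reach many cell cycle genes indirectly: p21 keeps the RB family of repressors active, and these sit with E2F proteins in complexes that hold down promoters with E2F sites or with the CHR element, a short sequence near the start of many mitotic genes.

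The TP73 signal was 5.94, 6.04 and 5.90 on the Dox− arrays and 7.95, 7.92 and 7.90 on the Dox+ arrays. All Dox+ arrays lay above all Dox− arrays, by 1.96 ± 0.06 (log2, SE, limma adjusted p = 1.06e-07). Between 2 arrays of 1 group the Pearson correlation across genes was 0.99776 to 0.99872, and between arrays of different groups 0.98869 to 0.99133, so that each array was closer to its own group. Of the 19775 genes, 2229 were up-regulated (11.3%) and 2549 down-regulated (12.9%), together 24.2%. The 2 directions differed in size. The median log2 fold change was 0.42 among the up-regulated genes and -0.33 among the down-regulated ones, and 301 rose but 47 fell by at least 2-fold, while 15 rose and 0 fell by at least 8-fold. The split also changed along the signal scale. With the genes cut into 5 equal groups by Dox− signal, 12.4% of the brightest group were up-regulated and 27.7% down-regulated, against 6.02% and 2.3% of the second dimmest group. Of the 301 genes up at least 2-fold, 239 were also up-regulated at 24 h, and 24 of the 47 down at least 2-fold were also down-regulated then.

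Some of the most changed genes were these. S100A2, a calcium-binding protein and known p53 family target, stood at 7.92, 8.04 and 8.07 in Dox− and at 13.48, 13.56 and 13.57 in Dox+. The groups were far apart, by 46.3-fold (limma adjusted p = 3.92e-10). CSTA, an epithelial protease inhibitor, rose 31.6-fold, and the antimicrobial ribonuclease RNASE7 rose 35.4-fold. Among the falls, SPINK1, a trypsin inhibitor often high in liver tumours, stood at 8.64, 8.83 and 8.85 in Dox− and at 5.36, 5.70 and 6.53 in Dox+. This 7.51-fold fall (limma adjusted p = 3.82e-05) had the Dox+ arrays spread over more than 1 log2 unit, but none reached a Dox− array. The gap junction protein GJA1 fell 7.13-fold, from 8.46, 8.66 and 8.43 to 5.72, 5.81 and 5.52. LGR5, a stem cell receptor that amplifies Wnt signals, fell 5.06-fold, from 8.73, 8.92 and 8.82 to 6.71, 6.92 and 5.82, with Dox+ replicate 3 below the others.

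**Figure D1:**
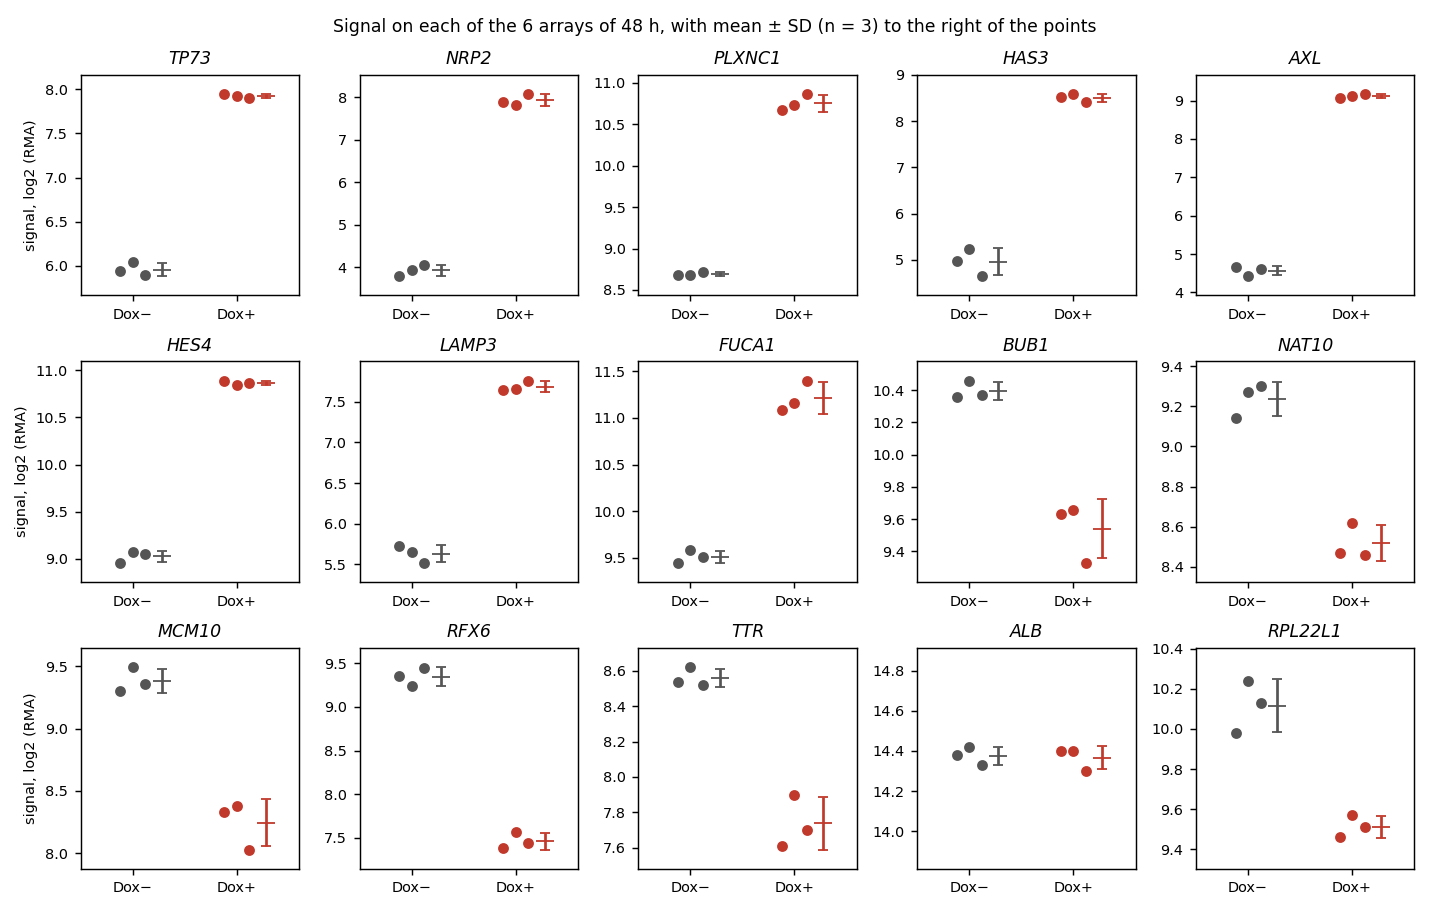
Log2 RMA signal (vertical axes, own scale per gene) of 15 genes on the 3 Dox− (grey) and 3 Dox+ (red) arrays of 48 h, with mean ± SD beside the points. The 2 groups are apart for every gene plotted except ALB, whose Dox− and Dox+ arrays lie at 14.30 to 14.42.

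To go past single genes, 103 families and pathways holding 5199 measured genes were read member by member. Lists drawn from translation held 6 up-regulated and 177 down-regulated genes of 354, and lists of the cell cycle 29 up and 198 down of 368. Lists of p53 targets and cell death held 53 up and 7 down of 90, signalling lists 124 and 63 of 589, adhesion lists 49 and 17 of 242, and lists of the secretory and lysosomal system 100 and 44 of 462. Immune lists held 33 up and 5 down of 103, liver lists 21 up and 53 down of 163. The lists described here are given beside the shares over all genes, 11.3% up and 12.9% down, and no test was made of a list against other genes. These shares change with signal, as given above, and lists were not matched to genes of like signal.

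**Figure D2:**
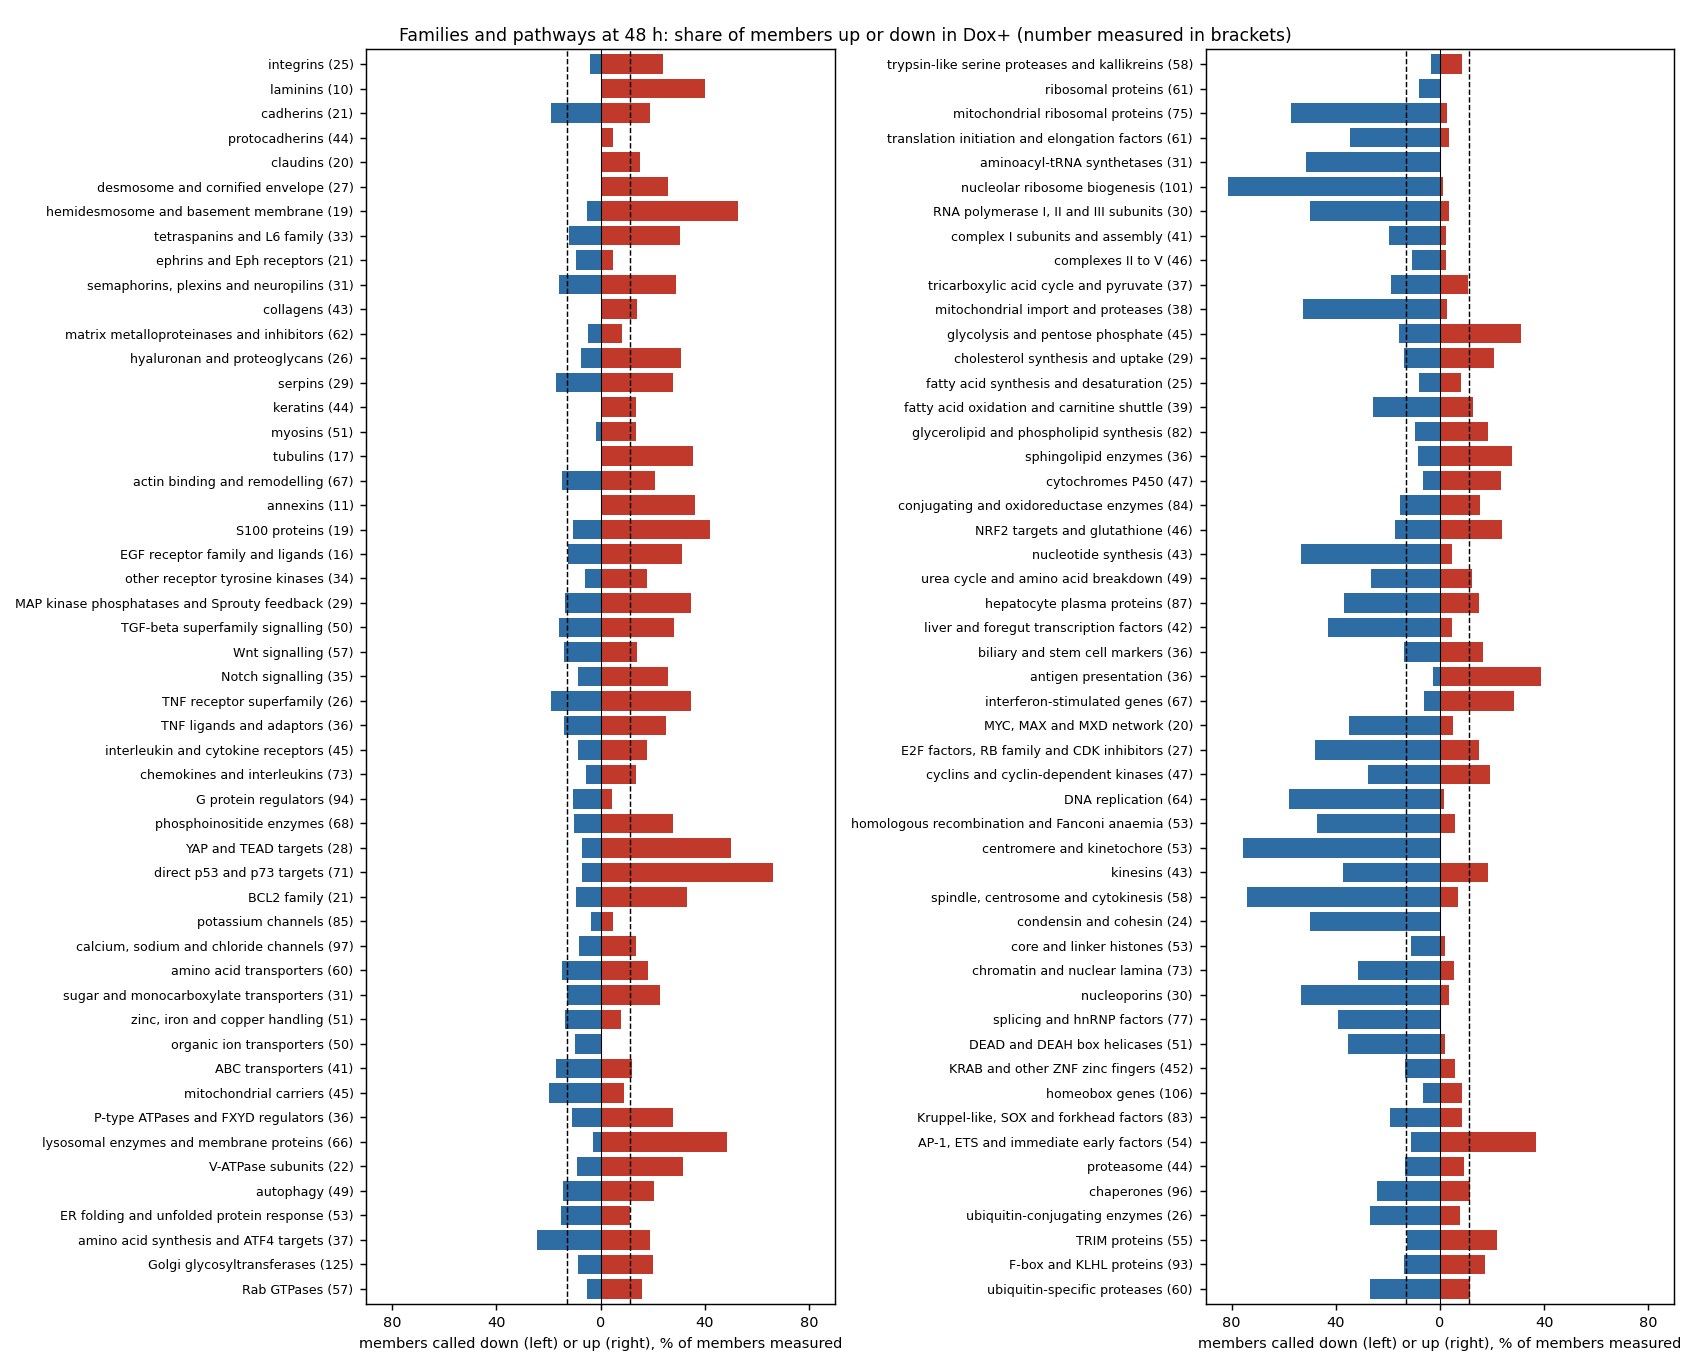
Share of the measured members of each of 102 families and pathways called up (red, to the right) or down (blue, to the left) at 48 h, in percent, with the number of members measured in brackets; dashed lines mark the shares over all genes, 11.3% and 12.9%. Nucleolar, centromere and spindle lists reach furthest to the left, and the p53 and p73 target list furthest to the right.

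Most factors of ribosome building were down-regulated, whereas few of the ribosome's own proteins passed the test. Of 101 nucleolar factors, which transcribe, cut and fold ribosomal RNA, 82 were down-regulated and 1 (UTP25, 0.26) was up-regulated, with a median log2 fold change of -0.36. LYAR, a nucleolar growth regulator, stood at 10.08, 10.32 and 10.17 in Dox− and at 9.28, 9.38 and 9.46 in Dox+, a fall of 1.76-fold (limma adjusted p = 1.01e-04). NAT10, which acetylates ribosomal RNA, stood at 9.14, 9.27 and 9.30 and then at 8.47, 8.62 and 8.46, a 1.65-fold fall (limma adjusted p = 1.12e-04). In both genes the groups were clearly apart, and both falls were small beside the large rises above. Of 61 ribosomal proteins, by contrast, 0 were up-regulated and 5 down-regulated, fewer than the share over all genes, and their median was -0.05. A Student's t-test called 11 of them down-regulated and the trended robust fit 15. It is called the methods' t-test below because the paper lists it among its general statistics. For the arrays themselves the paper names a class comparison in BRB-ArrayTools, which was not rerun. The largest of the 5 falls was RPL22L1, a paralog of RPL22, from 9.98, 10.24 and 10.13 to 9.46, 9.57 and 9.51 (1.51-fold). Down-regulated nucleolar factors numbered 67 to 76 with any 1 of the 6 arrays left out.

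The rest of the protein-making and nucleic acid machinery followed with smaller steps. Of 30 subunits of RNA polymerases I, II and III, 15 were down-regulated and 1 up-regulated. POLR3G, the RNA polymerase III subunit of undifferentiated cells, fell 2.17-fold, from 6.81, 6.90 and 6.85 to 5.78, 6.0 and 5.43, while POLR2L, a small subunit shared by the polymerases, rose 1.71-fold. The 3 probe sets of POLR3G ranged from -1.12 to -0.04, and only 1 passed. Among 75 mitochondrial ribosomal proteins 43 were down-regulated and 2 (MRPS6 and MRPL27) up-regulated, with a median of -0.23. Of 31 aminoacyl-tRNA synthetases, which charge transfer RNAs, 0 were up-regulated and 16 down-regulated, led by the mitochondrial methionine enzyme MARS2 (1.7-fold). Of 38 genes for protein import into mitochondria 20 were down-regulated, among them the channel TOMM40 (1.45-fold), and only the cytosolic co-chaperone TOMM34 was up-regulated, from 9.30, 9.33 and 9.26 to 10.16, 10.22 and 10.22. In the respiratory chain, 8 of 41 complex I genes (19.5%; 2 to 6 with 1 array left out) and 5 of 46 genes of complexes II to V (10.9%) were down-regulated, and 1 in each list was up-regulated. The median Dox− signals of these respiratory lists, 11.3 and 12.1, lay in the brightest group of genes, above 9.33. In that group 27.7% were down-regulated, so both respiratory shares were below it.

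Nucleotide synthesis held 23 down-regulated genes of 43, with PFAS, a purine synthesis enzyme, down 1.68-fold. The 2 genes up-regulated there, RRM2B and TK2, supply deoxynucleotides outside S phase, and RRM2B, a p53 target, rose 1.51-fold from 8.30, 8.62 and 8.46 to 9.08, 8.95 and 9.12. The list also held DPYD, which degrades pyrimidines and fell 2.36-fold. Nucleoporins were down-regulated in 16 of 30 cases and splicing factors in 30 of 77, with 0 splicing factors up-regulated. These smaller changes lean on the fit. With any 1 of the 6 arrays left out, 14 to 17 splicing factors were down-regulated. Of the polymerase subunits 9 passed once Dox+ replicate 1 was dropped and 8 once Dox− replicate 2 was, and of the import genes 13 once Dox− replicate 3 was. With all 14 arrays in 1 fit the down-regulated members numbered 10 for splicing, 10 for nucleoporins, 8 for polymerases, 12 for import, 23 for mitochondrial ribosomal proteins and 9 for synthetases. MYC, a transcription factor that drives growth and ribosome production, fell 1.7-fold, from 11.64, 11.60 and 11.67 to 10.94, 10.87 and 10.81 (limma adjusted p = 2.80e-05).

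Chromosome segregation genes moved together and further. Of 53 centromere and kinetochore genes, the proteins that tie chromosomes to the spindle, 40 were down-regulated and 0 up-regulated, with a median of -0.55. By the methods' t-test 24 of them passed. Of 58 genes of the spindle, centrosome and cytokinesis, 43 were down-regulated and 4 up-regulated, with a median of -0.48. BUB1, a kinase of the spindle checkpoint, stood at 10.36, 10.46 and 10.37 in Dox− and at 9.63, 9.66 and 9.33 in Dox+, a 1.81-fold fall (limma adjusted p = 1.55e-04). DEPDC1B, which helps cells round up for mitosis, fell 1.96-fold, from 10.23, 10.46 and 10.18 to 9.44, 9.57 and 8.97 (limma adjusted p = 1.19e-03). In both, Dox+ replicate 3 was the lowest array. It held the lowest of the Dox+ values in 33 of the 40 centromere genes and in 41 of the 43 spindle genes, against 1150 of all 2549 down-regulated genes. Without that array, or any other of the 6, the counts were 36 to 38 and 40 to 42. Replicate 3 was the most extreme Dox+ array outside these lists too, in 31 of 37 replication falls and 1446 of all 2229 up-regulated genes, but in 38 of 82 nucleolar falls. Its 3′ to 5′ difference for ACTB, a measure of RNA quality, was 1.03, against 0.83 and 0.79 in the other Dox+ arrays. The part of RNA quality here was not tested.

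Kinesins, motors that walk on microtubules, split. Of 43 measured, 16 were down-regulated (9 by the methods' t-test) and 8 up-regulated (5 in the fit of all 14 arrays). The falls were led by KIF15, a spindle motor, from 8.48, 8.54 and 8.60 to 7.59, 7.62 and 7.28, a 2.05-fold fall (limma adjusted p = 5.95e-05), and they took in the chromosome motor KIF4A (1.66-fold). The rises were led by KIF5C, a cargo motor known from neurons, from 5.51, 5.56 and 5.63 to 6.90, 7.16 and 7.62, a 3.15-fold rise (limma adjusted p = 7.20e-05), and by KIFC2. Named after their values were seen, all 3 parts of the ciliary and vesicle motor kinesin-2 that pass cargo outward, KIF3A, KIF3B and KIFAP3, were up-regulated too, by 0.52, 0.26 and 0.28 (log2).

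DNA replication genes were down-regulated in 37 of 64 cases and up-regulated in 1, with a median of -0.28. MCM10, which helps open replication origins, fell 2.2-fold, from 9.30, 9.49 and 9.36 to 8.33, 8.38 and 8.03 (limma adjusted p = 4.44e-05). EXO1, a nuclease of mismatch and break repair from the recombination list, fell 1.8-fold, from 8.61, 8.81 and 8.71 to 7.88, 8.09 and 7.61 (limma adjusted p = 6.52e-04). The groups did not overlap in either gene. Homologous recombination and Fanconi anaemia genes held 25 down-regulated and 3 up-regulated members of 53, with the helicase BLM down 1.91-fold, and condensin and cohesin held 12 down (6 in the fit of all 14 arrays) and 0 up of 24. Core and linker histones held 6 down-regulated genes of 53, near the share over all genes, and 1 up-regulated, which is below it. The median Dox− signal of the histone list was only 5.24, in the second dimmest group, where 2.3% of genes were down-regulated. Dim members that did not pass may be poorly measured here. With 1 array left out, 2 to 5 histone genes were down-regulated, and the 2 came with Dox− replicate 2 dropped.

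Cyclins and their kinases moved both ways. Of 47, 13 were down-regulated and 9 up-regulated (5 in the fit of all 14 arrays). Members that act in S phase and G2/M were among the falls: CDC25C, the phosphatase that releases CDK1, fell 1.85-fold, CCNA2 1.61-fold, and CCNB1, the mitotic cyclin, from 11.54, 11.59 and 11.54 to 11.07, 11.05 and 10.73 (1.52-fold). D-type cyclins, which act in G1, were among the rises. CCND2 rose 2.9-fold, from 6.30, 6.19 and 6.0 to 7.58, 7.74 and 7.78, though its other 3 probe sets moved by -0.13 to 0.35 and did not pass. CCND1 and CCND3, named after their values were seen, rose by 0.40 and 0.45 (log2). CDKN1A, which encodes the CDK inhibitor p21, stood at 9.35, 9.44 and 9.37 in Dox− and 12.09, 12.09 and 12.29 in Dox+, a 6.82-fold rise (limma adjusted p = 3.84e-08).

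**Figure D3:**
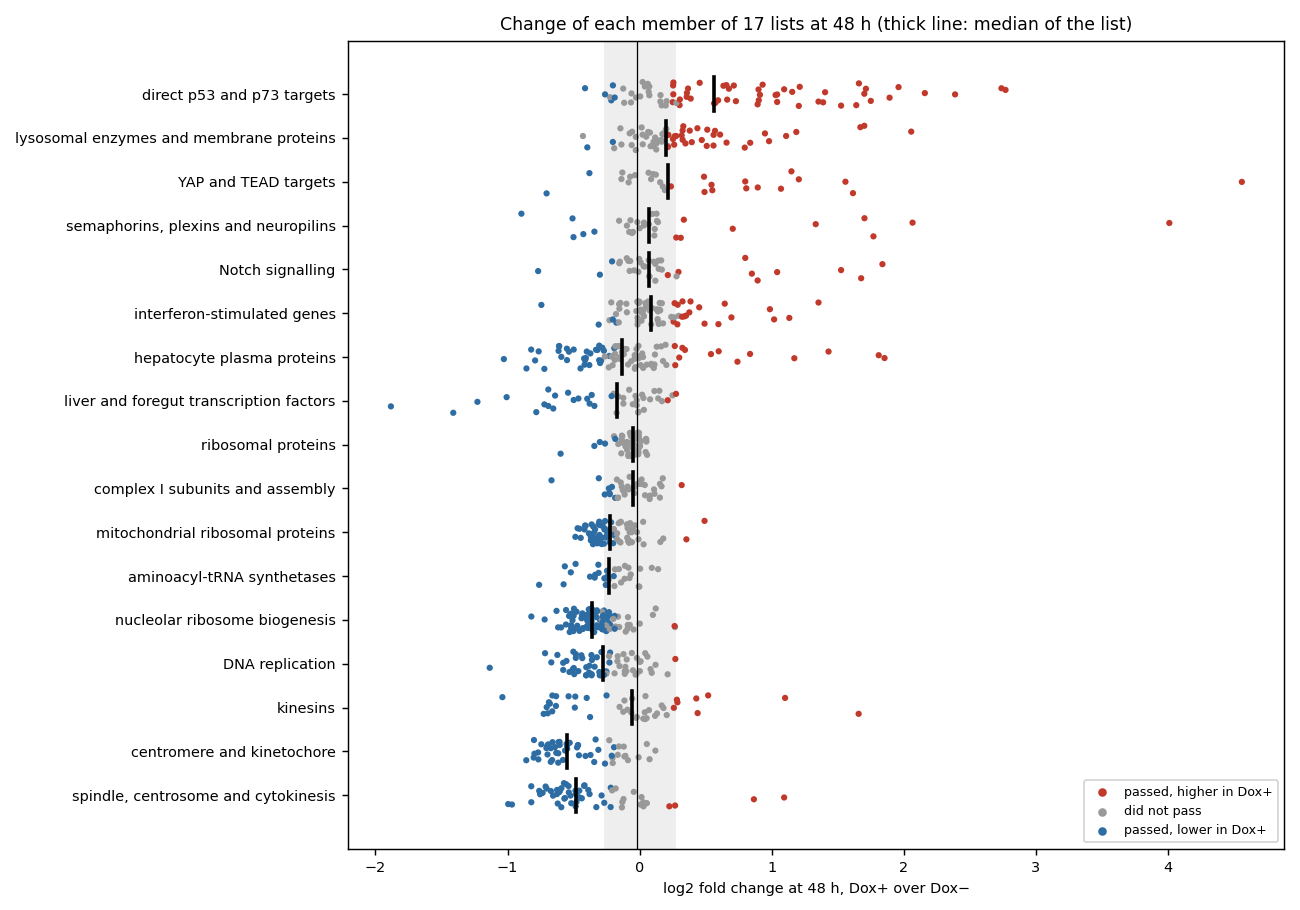
Log2 fold change at 48 h (horizontal axis, Dox+ over Dox−) of each measured member of 17 lists, red for up-regulated, blue for down-regulated and grey for members that did not pass, with a thick line at each list's median; the shaded band holds the middle of all genes, from the 10th percentile (-0.26) to the 90th (0.27). Centromere, spindle and nucleolar members lie mostly left of the band, while most ribosomal proteins lie inside it.

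The promoters of the falling division and growth genes differed in the short motifs they hold. Those of 4 down-regulated genes and 1 up-regulated gene are shown as examples of the motifs counted below. They are RefSeq sequences of GRCh38.p14, from 250 bases before to 50 after the start of the gene, written 5′ to 3′ on the gene's strand, with the motif named for each gene in capitals. BUB1 (chr2:110678014-110678313, minus strand) and DEPDC1B (chr5:60700117-60700416, minus strand) each hold a CHR (TTTGAA or TTCGAA on either strand) at the start site, with a pair of CCAAT boxes upstream in BUB1 and a single one in DEPDC1B. EXO1 (chr1:241847954-241848253, plus strand) holds an E2F motif (TTTNGCGC) and, left in lower case, a cyclic AMP response element (CRE), NAT10 (chr11:34105379-34105678, plus strand) an E-box (CACGTG), the letters bound by MYC and related factors, and ISG15 (chr1:1013247-1013546, plus strand) overlapping copies of the interferon motif ISRE (GAAA, any 2 bases, GAAA).
BUB1: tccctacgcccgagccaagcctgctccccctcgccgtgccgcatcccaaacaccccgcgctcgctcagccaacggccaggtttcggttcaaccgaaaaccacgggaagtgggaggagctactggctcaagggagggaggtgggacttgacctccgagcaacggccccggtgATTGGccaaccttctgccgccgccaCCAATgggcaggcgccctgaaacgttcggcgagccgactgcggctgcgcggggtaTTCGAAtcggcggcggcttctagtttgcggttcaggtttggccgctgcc
DEPDC1B: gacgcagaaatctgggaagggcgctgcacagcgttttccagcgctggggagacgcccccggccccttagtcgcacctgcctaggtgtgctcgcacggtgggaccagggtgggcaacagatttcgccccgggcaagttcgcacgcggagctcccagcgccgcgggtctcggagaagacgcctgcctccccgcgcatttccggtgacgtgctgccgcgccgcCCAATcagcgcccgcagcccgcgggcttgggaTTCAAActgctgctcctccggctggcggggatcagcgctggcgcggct
EXO1: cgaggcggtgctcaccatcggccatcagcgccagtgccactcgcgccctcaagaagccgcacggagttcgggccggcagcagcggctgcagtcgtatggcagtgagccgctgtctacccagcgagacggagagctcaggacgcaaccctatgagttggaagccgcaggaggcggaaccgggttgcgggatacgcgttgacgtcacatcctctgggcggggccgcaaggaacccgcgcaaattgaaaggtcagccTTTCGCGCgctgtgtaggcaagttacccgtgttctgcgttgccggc
NAT10: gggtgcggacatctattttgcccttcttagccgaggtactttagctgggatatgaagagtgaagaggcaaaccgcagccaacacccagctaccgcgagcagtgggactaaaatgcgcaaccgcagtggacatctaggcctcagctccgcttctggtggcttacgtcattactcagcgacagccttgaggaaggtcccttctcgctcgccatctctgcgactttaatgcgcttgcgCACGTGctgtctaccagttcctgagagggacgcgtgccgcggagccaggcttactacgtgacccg
ISG15: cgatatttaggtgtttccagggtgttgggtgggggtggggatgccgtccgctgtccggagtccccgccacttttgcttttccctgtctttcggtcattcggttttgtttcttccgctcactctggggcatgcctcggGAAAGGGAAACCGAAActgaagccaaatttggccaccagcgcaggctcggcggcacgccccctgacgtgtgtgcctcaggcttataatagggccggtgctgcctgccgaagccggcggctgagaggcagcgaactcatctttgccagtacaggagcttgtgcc

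All motifs were searched on both strands in the promoters of the 15384 tested genes that RefSeq's table names. A CHR was present in 62.5% of the 32 promoters of down-regulated centromere genes and 65.7% of the 35 of down-regulated spindle genes, against 13.3% of all promoters. A CHR and a CCAAT box stood together in 46.9% and 48.6% of these, against 5.43% of all. Over all measured centromere genes a CHR stood in 23 of 43 promoters (53.5%), and 20 of these 23 belonged to down-regulated genes. For spindle genes it stood in 25 of 48 (52.1%), of which 23 belonged to down-regulated genes. Whether the motif goes with the change inside these lists was not tested. Promoters of down-regulated DNA replication genes had few CHRs (3.03% of 33) and more E2F motifs, 30.3% against 2.40% of all. Over all 55 measured replication promoters the E2F share was near this, at 29.1%. Down-regulated nucleolar genes held the E-box in 36.8% of 68 promoters, against 8.90% of all and 12.8% of the 2111 promoters of all down-regulated genes. Over all 85 measured nucleolar promoters the share was 36.5%, so called and uncalled members hardly differed in it. Among up-regulated lists, the ISRE stood in 60.0% of 15 interferon-stimulated promoters (62.0% of all 50 measured), against 2.94% of all. CCAAT boxes stood in 91.7% of 12 promoters of up-regulated antigen presentation genes and in 61.3% of all 31 measured, against 36.1%. The full p53 response element was matched in 0 of the 39 promoters of up-regulated p53 and p73 targets and in 0.165% of those of all up-regulated genes, a window that leaves out introns and distal sites. A match is a description of letters in the window, not a bound site.

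Of 71 genes listed as direct p53 and p73 targets, TP73 itself among them, 47 were up-regulated and 5 down-regulated, with a median of 0.56. Dox+ replicate 3 was the highest Dox+ array in 37 of the 47, and 43 to 45 were up-regulated with any 1 of the 6 arrays left out. Besides CDKN1A, the death receptor FAS rose 6.68-fold, from 4.55, 4.47 and 4.31 to 7.17, 7.24 and 7.13 (limma adjusted p = 5.52e-08). MDM2, the ligase that feeds back on p53, named after its values were seen, rose 3.36-fold. The 5 falls were small, from -0.41 to -0.19 (log2), in POLH, RPS27L, CCNG2, AEN and TRIAP1. Of 26 TNF receptor superfamily members 9 were up-regulated and 5 down-regulated.

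At the cell surface, 5 receptors for guidance cues were up-regulated, and the cues themselves moved both ways. Semaphorins signal through plexins, with neuropilins as co-receptors for the class 3 members, and steer axons, vessels and migrating cells. Of 31 family members 9 were up-regulated, 5 down-regulated and 17 did not pass. The co-receptor NRP2 stood at 3.80, 3.94 and 4.05 in Dox− and at 7.90, 7.82 and 8.09 in Dox+, a 16.1-fold rise (limma adjusted p = 1.79e-08), although its 11 probe sets ranged from 0.11 to 4.01. PLXNC1 rose 4.19-fold, from 8.68, 8.68 and 8.72 to 10.67, 10.73 and 10.87 (limma adjusted p = 1.30e-07). PLXNA1 and PLXNA2, which pair with neuropilins, rose 3.41-fold and 3.25-fold. All 5 down-regulated members were ligands: SEMA3A, from 8.85, 8.90 and 8.69 to 7.93, 7.96 and 7.87, and SEMA3G, SEMA3C, SEMA4G and SEMA3E, with falls of 0.34 to 0.51 on the log2 scale. Against these 5 ligands, 4 others were up-regulated: SEMA3F (2.52-fold), SEMA6A, SEMA4F and SEMA4D. The remaining receptor among the 9 was PLXNA3 (0.28, log2).

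Basement membrane and hemidesmosome genes, which anchor epithelia, held 10 up-regulated and 1 down-regulated member of 19, with a median of 0.34. LAMB3, a chain of laminin-332, stood at 6.04, 6.16 and 6.47 in Dox− and at 8.28, 8.44 and 8.45 in Dox+, a 4.5-fold rise (limma adjusted p = 1.63e-06). The anchoring collagen COL7A1 rose 1.95-fold, and the laminin receptor chain ITGA3 rose 1.84-fold with arrays at 5.62, 5.43 and 5.14 against 6.12, 6.13 and 6.57 (not passed by the methods' t-test). No laminin was down-regulated (4 up of 10). HAS3, a hyaluronan synthase, rose 11.7-fold on 1 probe set, from 4.98, 5.23 and 4.65 to 8.53, 8.58 and 8.41, while its other probe set moved by 0.00 and did not pass. The cell surface proteoglycan GPC4 rose 5.2-fold, from 4.59, 4.48 and 4.79 to 6.95, 6.99 and 7.05. Of 43 collagens 6 were up-regulated and 0 down-regulated.

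Other surface families split inside. Of 33 tetraspanins and L6 proteins, membrane organisers that span the membrane several times, 10 were up-regulated and 4 down-regulated. Of these 4, 3 belong to the L6 branch: TM4SF4, from 8.77, 8.69 and 8.96 to 6.63, 6.79 and 6.72 (4.27-fold, limma adjusted p = 4.04e-07), TM4SF1 (2.28-fold) and TM4SF5. The metastasis suppressor CD82, a tetraspanin, rose 2.04-fold. Of 21 cadherins 4 were up-regulated and 4 down-regulated. The rises were CDH10 (2.13, log2), E-cadherin (CDH1), CDH24 and CDH11, and the falls N-cadherin (CDH2), CDH6, CDH12 and CDH16. CDH1 rose 1.71-fold, from 11.13, 11.18 and 11.16 to 11.98, 11.96 and 11.86. CDH2 fell 1.54-fold, from 7.81, 7.81 and 7.87 to 7.18, 7.16 and 7.26. Among 19 S100 proteins 8 were up-regulated and 2 down-regulated, with S100A4 up 2.44-fold. No tubulin (6 up of 17), keratin (6 up of 44) or annexin (4 up of 11) was down-regulated. Their leading members were TUBB6 (3.72-fold), KRT80 (1.98-fold) and ANXA1 (4.06-fold, from 6.47, 6.63 and 6.24 to 8.53, 8.59 and 8.29). For keratins the up-regulated share, 13.6%, was near the 11.3% over all genes. Their median Dox− signal, 4.86, lay in the second dimmest group, where only 2.3% of genes were down-regulated.

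In Notch signalling, where ligands on 1 cell activate receptors on its neighbour, 9 of 35 genes were up-regulated and 3 down-regulated. The ligand JAG1 stood at 9.47, 9.42 and 9.54 in Dox− and at 11.02, 11.06 and 10.93 in Dox+, a 2.88-fold rise (limma adjusted p = 5.99e-07). The ligand JAG2 and the receptor NOTCH1 rose by 1.04 and 0.89 (log2), the latter named after its values were seen. Of the downstream genes, HES4 rose 3.57-fold, from 8.96, 9.07 and 9.05 to 10.89, 10.84 and 10.87, whereas HES1, the standard Notch target, named after its values were seen, rose by 0.21 only. JAG1, JAG2 and NOTCH1 are also on the p53 and p73 target list.

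Targets of YAP and TEAD, the transcription partners restrained by the Hippo pathway, held 14 up-regulated and 2 down-regulated genes of 28. The receptor tyrosine kinase AXL led them, from 4.65, 4.43 and 4.61 to 9.07, 9.12 and 9.18, a 23.6-fold rise (limma adjusted p = 3.57e-09). Among the other rises, picked out after their values were seen, are AMOT, AMOTL1, AMOTL2, LATS2 and PTPN14, which are themselves known to restrain YAP. AP-1, ETS and immediate early factors held 20 up-regulated and 6 down-regulated genes of 54. FOS stood at 8.06, 8.14 and 8.0 in Dox− and at 8.64, 8.72 and 8.66 in Dox+ (0.61, limma adjusted p = 1.31e-04), and JUNB rose by 0.61, both chosen after their values were seen. MAF rose 2.63-fold, whereas the ETS factor ETV1 fell 2.36-fold, from 9.34, 9.36 and 9.21 to 8.17, 8.05 and 7.98. Phosphoinositide enzymes held 19 up-regulated and 7 down-regulated genes of 68, with 14 to 16 up-regulated when 1 array was left out and 11 in the fit of all 14 arrays.

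Of 66 lysosomal enzymes and membrane proteins, which serve the cell's degrading compartment, 32 were up-regulated and 2 down-regulated, with a median of 0.20. Dox+ replicate 3 was the highest Dox+ array in 23 of the 32, and 27 to 31 were up-regulated with any 1 of the 6 arrays left out. LAMP3, a lysosomal membrane protein, stood at 5.73, 5.65 and 5.52 in Dox− and at 7.64, 7.65 and 7.76 in Dox+, a 4.16-fold rise (limma adjusted p = 2.07e-07). The fucosidase FUCA1, a p53 target, rose 3.25-fold, from 9.45, 9.58 and 9.51 to 11.08, 11.16 and 11.40, and the protease CTSH rose 3.19-fold. The other FUCA1 probe set moved by 0.04 and did not pass. The 2 falls were the cystine exporter CTNS (-0.40) and the calcium channel MCOLN1 (-0.20). V-ATPase subunits, which acidify the lysosome, held 7 up-regulated and 2 down-regulated genes of 22 with smaller changes, of at most 0.54. The E-box, part of the longer CLEAR motif of lysosomal genes, stood in 27.3% of 22 promoters of up-regulated lysosomal genes and in 28.6% of all 49 measured, so called and uncalled members hardly differed in it.

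Golgi enzymes that build sugar chains held 25 up-regulated and 11 down-regulated genes of 125, and 6 rose at least 2-fold. The down-regulated ones numbered 6 with Dox− replicate 2 dropped and 6 in the fit of all 14 arrays. ST6GALNAC2, a sialyltransferase, stood at 4.91, 5.17 and 4.89 in Dox− and at 7.73, 8.15 and 8.45 in Dox+, an 8.67-fold rise (limma adjusted p = 2.05e-06). GCNT3, which branches mucin chains, rose 5.6-fold and the sulfotransferase CHST15 4.81-fold. The other CHST15 probe set moved by 0.30 and did not pass. Sphingolipid enzymes held 10 up and 3 down of 36 (5 up in the fit of all 14 arrays), with the ceramidase ACER2, a p53 target, up by 1.64 (log2).

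Metabolic enzymes as a whole split evenly, 93 up and 93 down of 519, with some large rises. CYP4F3, a fatty acid and leukotriene hydroxylase, rose 15.4-fold, from 3.78, 3.95 and 3.84 to 7.75, 7.68 and 7.97 (limma adjusted p = 1.79e-08). Its close relative CYP4F2 rose by 1.51 (log2), and as near-copies the 2 genes may share probe signal. CROT, which moves fatty acids out of peroxisomes, rose 6.36-fold, from 8.40, 8.39 and 8.52 to 11.11, 10.95 and 11.25. PFKP, the platelet form of phosphofructokinase, rose 7.18-fold, from 5.78, 5.40 and 5.41 to 8.22, 8.29 and 8.62, within a glycolysis and pentose phosphate list of 14 up and 7 down of 45. The other PFKP probe set moved by -0.02 and did not pass. FXYD3, a regulator of the sodium pump, rose 8.81-fold, the urate and hexose carrier SLC2A9 4.88-fold and the lipid transporter ABCA12 5.24-fold. The other SLC2A9 probe set moved by 0.16 and did not pass.

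Liver-type genes fell more often than they rose. Of 42 liver and foregut transcription factors 18 were down-regulated and 2 up-regulated (0 to 1 with any 1 array left out), and 4 fell at least 2-fold. RFX6, a foregut and endocrine factor, stood at 9.35, 9.24 and 9.45 in Dox− and at 7.38, 7.57 and 7.44 in Dox+, a 3.69-fold fall (limma adjusted p = 5.36e-07). The orphan receptors ESRRG and NR2F1 fell 2.66-fold and 2.01-fold, and NR0B2, the bile acid-responsive corepressor SHP, fell 2.34-fold, from 8.89, 8.98 and 9.02 to 7.72, 7.75 and 7.73. Of 87 plasma proteins of hepatocytes, 32 were down-regulated and 13 up-regulated, with a median of -0.14.

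The plasma proteins moved in both directions. TTR, the thyroxine and retinol carrier, fell 1.77-fold, from 8.54, 8.62 and 8.52 to 7.61, 7.90 and 7.70 (limma adjusted p = 1.11e-04). Hormone carriers were also among the rises: SERPINA6, which binds cortisol, rose from 9.87, 9.90 and 9.93 to 11.68, 11.76 and 11.83 (3.61-fold, limma adjusted p = 1.55e-07), and SERPINA7, which binds thyroxine, rose 3.51-fold. RBP4, the retinol carrier that partners TTR, named after its values were seen, fell by 0.31 on the log2 scale. ALB gave 14.38, 14.42 and 14.33 in Dox− and 14.40, 14.40 and 14.30 in Dox+, overlapping values (limma adjusted p = 0.950) near the top of the signal range, but 1 of its 4 probe sets fell by 0.90 and passed. APOA1 fell 1.81-fold on the probe set used, which is marked as open to cross-hybridisation. Its only probe set without that mark moved by -0.03 and did not pass, but it was dim, at 5.08 in Dox− against 11.77. In the urea cycle and amino acid list 13 of 49 were down-regulated (8 in the fit of all 14 arrays) and 6 up-regulated, with CPS1, the entry enzyme of the urea cycle, down 1.89-fold, from 9.49, 9.45 and 9.39 to 8.56, 8.66 and 8.35.

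As a check of cell identity, all 11 measured hepatocyte markers of 12 listed lay above the median gene on each of the 6 arrays, with 7 down-regulated and 1 up-regulated. Of 10 endothelial markers 0 passed. Of 11 leukocyte markers ITGAM was up-regulated and LYZ down-regulated, with PTPRC and CD3E not passing. The log2 of the leukocyte list's summed signal was 11.96 to 12.11 in Dox− and 11.29 to 11.47 in Dox+. Most of that sum was the list's brightest marker, at 11.76 to 11.93 in Dox− and 10.85 to 11.09 in Dox+. The list's median moved the other way, from between 5.32 and 5.45 to between 5.94 and 6.09. Of 12 fibroblast markers ACTA2, DCN and LUM were up-regulated (DCN not with any 1 array left out). COL1A1 and COL3A1 did not pass on the probe sets used, though 1 of the other 4 COL1A1 probe sets rose by 0.92 and passed. The log2 of the fibroblast list's summed signal was 9.96 to 10.07 in Dox− and 10.56 to 10.78 in Dox+. Most of that sum was again the brightest marker, at 8.55 to 8.82 in Dox− and 9.75 to 10.11 in Dox+. The list's median signal was 5.417 to 5.505 in Dox− and 5.637 to 5.699 in Dox+, and 5 members moved up and 7 down, passed or not. The part of these markers in the matrix and immune results was not tested. Within a culture, fewer cells of a kind and less RNA per cell cannot be told apart.

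Of 36 antigen presentation genes, which cut, load and display peptides on MHC molecules, 14 were up-regulated, 1 (PSMB10) was down-regulated and 21 did not pass. The peptide transporter TAP1 stood at 6.87, 6.97 and 6.81 in Dox− and at 7.93, 7.88 and 8.0 in Dox+, a 2.07-fold rise (limma adjusted p = 6.18e-06). PSMB9 rose by 0.72, and HLA-B and B2M, chosen after their values were seen, rose by 0.56 and 0.23 (log2). Interferon-stimulated genes held 19 up-regulated and 4 down-regulated of 67. IRF9, the DNA-binding part of the interferon response complex, rose 2.03-fold, from 7.65, 7.66 and 7.74 to 8.71, 8.68 and 8.71, and ISG15 rose 1.98-fold, from 9.41, 9.48 and 9.46 to 10.33, 10.35 and 10.63. The list was uneven, with 44 members not passing. OAS1, a classic member named after its values were seen, did not pass, with arrays at 3.95, 4.11 and 4.10 against 4.14, 3.98 and 4.12. These values lie in the dimmest group of genes, up to 4.33, where 2.25% were up-regulated, so OAS1 may not have been measurable. Up-regulated members numbered 13 to 18 with 1 array left out and 11 in the fit of all 14 arrays.

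Whether the late effect differed from the earlier one was tested as an interaction of treatment and time over all 14 arrays. Between 24 h and 48 h, 99 genes (0.501%) had a higher log2 fold change at 48 h and 31 (0.157%) a lower one, both with and without array weights. Of the 28 targets of YAP and TEAD, 6 were higher at 48 h. CCN2 and CCN1, matricellular proteins and the usual readouts of YAP, crossed from lower to higher: CCN2 from -1.64 at 24 h to 0.49 at 48 h (interaction 2.12 ± 0.21, limma adjusted p = 1.08e-04) and CCN1 from -0.93 to 1.07 (2.00 ± 0.17, limma adjusted p = 3.28e-05). At 48 h the CCN2 arrays stood at 9.75, 9.77 and 9.80 in Dox− and at 10.14, 10.20 and 10.45 in Dox+, with no overlap. The other 4 were AMOTL2, CRIM1, FJX1 and WWTR1. WWTR1 encodes TAZ, a protein related to YAP, and was not itself called at 48 h. Of the 54 AP-1, ETS and immediate early factors 4 were higher, with FOS moving from -1.22 to 0.61. Of the 71 p53 and p73 targets 8 were higher, JAG1 and ACER2 among them.

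A few liver-type genes were among those with a lower effect at 48 h than at 24 h. Of 42 liver and foregut transcription factors 2 were lower and 0 higher. Of 87 plasma proteins 1 was lower and 1 higher, and of 49 urea cycle and amino acid genes 1 was lower and 0 higher. RFX6 moved from -0.20 at 24 h to -1.88 at 48 h (interaction -1.68 ± 0.20, limma adjusted p = 1.01e-03) and CPS1 from 0.27 to -0.92 (-1.19 ± 0.16, limma adjusted p = 2.53e-03). SULT2A1, which sulfates steroids and bile acids, moved from 1.16 to -0.38. RNA quality moved with the earlier time point. The log2 signal difference between the 3′ and 5′ GAPDH probe sets was 0.43 to 0.49 in Dox− and 0.91 to 1.00 in Dox+ at 24 h, against 0.37 to 0.52 over both groups at 48 h. Its part in these differences was not tested. The counts also rest on the 24 h arrays, of which there are 2 a group. Without Dox+ replicate 1 of 24 h, 14 genes were higher at 48 h (131 with it, before asking for a pass without weights), and without Dox+ replicate 2 of 24 h, 27. The 48 h effects themselves were fitted without those arrays, though the choice of probe set used all 14.

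**Figure D4:**
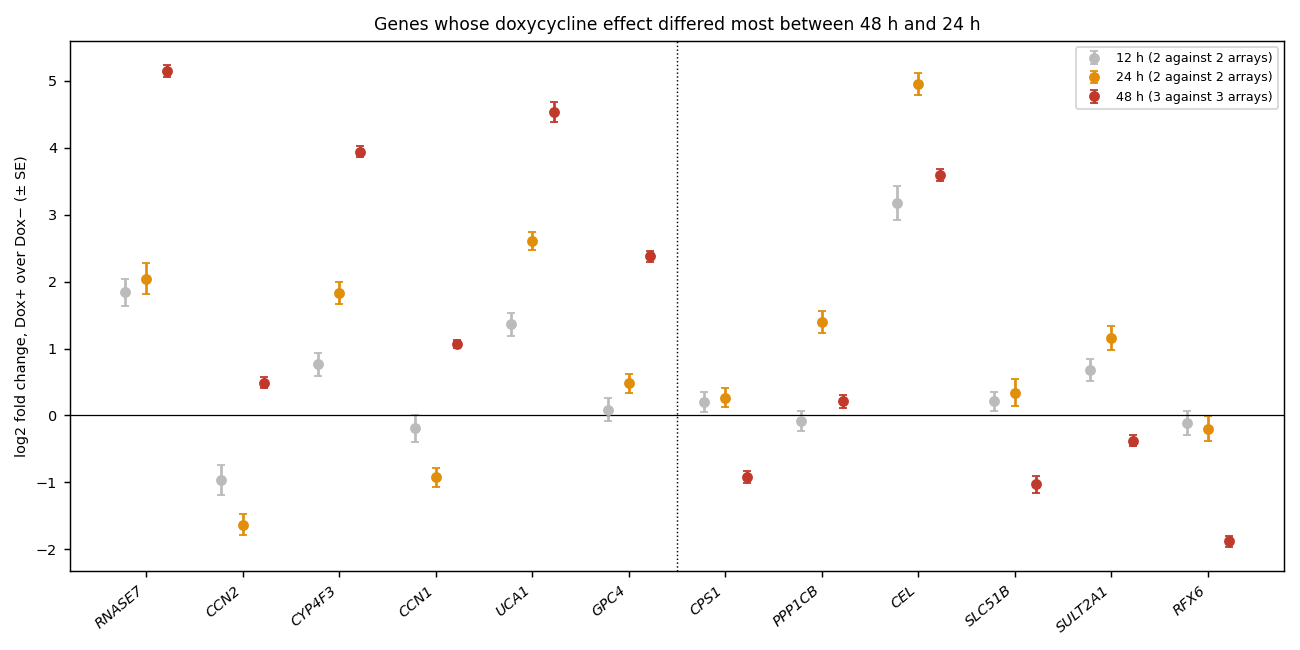
Log2 fold change ± SE (vertical axis, Dox+ over Dox−) at 12 h (grey), 24 h (orange) and 48 h (red) for the 6 genes with the most higher and the 6 with the most lower effect at 48 h than at 24 h, divided by the dotted line. CCN2 and CCN1 lie below 0 at 24 h and above it at 48 h, and CPS1, SLC51B and SULT2A1 do the reverse.

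Several further families are given for completeness, against 11.3% up and 12.9% down over all genes. Of 85 potassium channels 4 were up-regulated and 3 down-regulated, and of 44 protocadherins 2 and 0, so both lists were under the share over all genes in each direction. Their median Dox− signals, 4.82 and 4.73, lay in the second dimmest group, where 6.02% of genes were up-regulated and 2.3% down-regulated. Of 452 KRAB and other ZNF zinc finger genes 26 were up-regulated (5.75%; 14 with Dox− replicate 1 dropped, 16 with Dox+ replicate 2 dropped) and 61 down-regulated (13.5%; 33 with Dox+ replicate 1 dropped, 38 with Dox− replicate 2 dropped). Organic ion transporters held 0 up-regulated and 5 down-regulated genes of 50, with 2 to 5 down-regulated when 1 array was left out. The proteasome held 4 and 6 of 44, with 3 to 4 down-regulated when any 1 array was left out. In Wnt signalling 8 were up-regulated and 8 down-regulated of 57, slightly above the share over all genes each way.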

How the data were processed

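RNA of Hep3BTAp73β cultures was hybridised to Affymetrix arrays of 54675 probe sets. Per the labels and processing notes, the authors normalised the arrays by RMA in R (version 3.5.1) and deposited log2 signals. RMA gives no detection calls, so a low signal has no stated background bound, and the number of arrays limits the precision. Of the probe sets, 41091 carry 1 gene (41037 matched through its Entrez identifier), 1801 several and 11721 none in the platform annotation, and 62 controls were left out. Each gene was read from its single-gene probe set with the highest mean over all 14 arrays.

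The 3 Dox+ and 3 Dox− arrays of 48 h were compared with limma 3.58.1 (lmFit and eBayes, R 4.3.3) over 19775 genes with Benjamini-Hochberg adjustment. The interaction of 48 h with 24 h used all 14 arrays, with and without array weights. Simulated data held 19775 genes with independent noise, and 40 genes were planted at each size of change. The 48 h fit recovered 70.0% of rises of 0.5 (log2) there and made 9 false calls. Far fewer genes changed in the simulation than the 24.2% called in the data, so these figures do not measure the real fit.

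The gene lists and the experiment itself were chosen with earlier results of these data known. Named genes were TP73, the 10 largest rises and falls with separated groups, up to 4 members per list by size of change among those that passed, the 6 largest differences to 24 h each way, and marker lists; others are said to be chosen after their values were seen, or were named as the whole of a small count. Promoters came from RefSeq, GRCh38.p14, by symbol (15384 genes). Alternatives changed the arrays fitted, the probe set rule, the filter on dim genes, the normalization, the moderation, the test and the replicate block, and left out each array in turn. The result of 1 list is not reported here.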

Additional observations from a re-analysis of the deposited data

Results flagged for a closer look

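Between 24 h and 48 h the effect of doxycycline differed by limma's interaction test, with and without array weights, and the 6 genes with the largest differences each way are given here. For RNASE7 the effect at 48 h was higher by 3.10 (log2, limma adjusted p = 3.28e-05), rising from 2.04 to 5.15. For CCN2 it was higher by 2.12 (limma adjusted p = 1.08e-04), and for CCN1 by 2.00 (limma adjusted p = 3.28e-05), both from a lower to a higher signal in Dox+. CYP4F3 was higher by 2.12 (from 1.83 to 3.94), UCA1, a long noncoding RNA, by 1.93 (from 2.60 to 4.54) and GPC4 by 1.90 (from 0.48 to 2.38).

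In the other direction RFX6 differed by -1.68 (limma adjusted p = 1.01e-03), SULT2A1 by -1.53, from 1.16 to -0.38 (limma adjusted p = 1.09e-03), and CPS1 by -1.19 (limma adjusted p = 2.53e-03). SLC51B, part of the bile acid exporter, differed by -1.37, from 0.34 to -1.03 (limma adjusted p = 1.82e-02). CEL, a bile salt lipase, differed by -1.37 and was up-regulated at both times, at 4.96 and then 3.59. PPP1CB differed by -1.19, from 1.40 to 0.21, and did not pass at 48 h (limma adjusted p = 0.174). Each 24 h group holds 2 arrays, and the 3′ to 5′ GAPDH difference was 0.91 to 1.00 in the 24 h Dox+ arrays against 0.43 to 0.49 in Dox−, whose part in these differences was not tested.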

How the results depend on the processing

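At 48 h the counts of 2229 up-regulated and 2549 down-regulated genes moved by more than 1.5 times in 2 settings: with all 14 arrays in 1 fit they were 1437 and 1361, and with every probe set tested on its own 3365 probe sets were up-regulated. They stayed within it for the dim-gene filter (2163 and 2885), the other probe set rule, quantile normalization, the trended robust moderation (2518 and 3022) and the methods' t-test (1540 and 1937), and with 1 array left out they were 1790 to 1976 and 1916 to 2295. The replicate numbers were not treated as pairs, since same-numbered arrays of 48 h deviated together with correlations of 0.1092, 0.0892 and 0.1024, although every array correlated best with its own number. The replicate block gave 2223 up-regulated and 2496 down-regulated genes at 48 h, and 28 higher and 7 lower in the interaction with 24 h.

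The interaction counts, 131 higher and 42 lower with array weights, were the least stable. They were 101 and 33 without weights and 96 and 24 with the 10 arrays of 24 h and 48 h, and quantile normalization gave 142 and 106. With 1 array left out they ranged from 14 to 143 and from 2 to 105. The lowest came without Dox+ replicate 1 of 24 h and the highest lower count without Dox− replicate 1 of 24 h. FXYD2 changed sign to -0.0092 without the cross-hybridising probe sets, and APOA1 (-0.03), ANXA2 (0.10), GDF15 (0.05) and FBXO2 (0.12) no longer passed there. The probe sets left for APOA1 and ANXA2 were dim, at 5.08 and 3.53 in Dox−, against 11.77 and 13.05 for those used. The causes were not tested. RMA values carry no background measure, so dim genes could not be bounded.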
